A study of Mus musculus with 11 samples.

Results

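The genes described here are 10 genes that mark macrophages or their activation state, measured in bulk RNA from pancreatic tumors. They were chosen by name as Csf1r, Csf1, Adgre1, Cd68, Mrc1, Cd163, Arg1, Nos2, Trem2 and Folr2, and all 10 were found among the 54232 gene identifiers of the count table and passed the filter on low counts with 16536 genes in all. Tumors were grown by injecting 1000 TB32048 cells, a carcinoma line with intact Pkn2 from a female KPC mouse (a genetic model of pancreatic cancer), in Matrigel into the pancreas of C57BL/6 hosts. All hosts were heterozygous for Rosa26-CreERT2, a Cre recombinase that tamoxifen switches on in the whole body, and all received 5 tamoxifen injections. The 6 KO hosts were Pkn2 fl/fl and the 5 WT hosts were Pkn2 +/+ littermates, all female and 24 to 28 weeks old when the experiment began. The deletion was thus directed at all host cells, macrophages included, and not at the injected carcinoma cells, and its extent in macrophages was not measured.

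Tumor macrophages arise from tissue-resident cells and from blood monocytes, and are abundant in pancreatic cancer. They depend on the receptor CSF1R and its ligands CSF1 and IL34 for survival. Adgre1 (F4/80) and Cd68 are used to identify the cells. Nos2, the inducible nitric oxide synthase, marks classical activation by interferon gamma and bacterial products, whereas Mrc1 (CD206, the mannose receptor), Cd163 (a scavenger receptor for hemoglobin) and Arg1 (arginase 1) are read as marks of alternative activation. Nos2 and Arg1 act on the same substrate, arginine. Trem2, a lipid receptor, marks lipid-associated macrophages, and Folr2, the folate receptor beta, marks resident-like macrophages. In bulk RNA, fewer macrophages and less RNA per macrophage cannot be told apart.

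The 250 bases before the annotated start of members are shown because PU.1, the factor that drives much of macrophage gene expression, binds a core of GAGGAA, and because these members did not share a pattern across tumors. The promoter table from RefSeq (GRCm38.p6) held 6 of the 10 genes, and both strands were searched, as GAGGAA and TTCCTC, which cannot overlap each other. Capitals mark the matches.
Mrc1 (chr2:14229164-14229413, plus strand): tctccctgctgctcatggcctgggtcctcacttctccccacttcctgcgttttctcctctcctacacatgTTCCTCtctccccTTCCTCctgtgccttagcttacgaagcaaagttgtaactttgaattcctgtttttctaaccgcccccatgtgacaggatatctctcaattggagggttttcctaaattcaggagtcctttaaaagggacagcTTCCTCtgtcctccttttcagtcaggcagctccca
Cd68 (chr11:69666171-69666420, minus strand): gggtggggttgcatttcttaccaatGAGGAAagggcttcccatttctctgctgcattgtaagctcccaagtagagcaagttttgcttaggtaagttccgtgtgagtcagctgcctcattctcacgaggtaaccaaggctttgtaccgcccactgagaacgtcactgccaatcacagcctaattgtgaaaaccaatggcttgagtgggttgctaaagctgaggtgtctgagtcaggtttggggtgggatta
Trem2 (chr17:48346151-48346400, plus strand): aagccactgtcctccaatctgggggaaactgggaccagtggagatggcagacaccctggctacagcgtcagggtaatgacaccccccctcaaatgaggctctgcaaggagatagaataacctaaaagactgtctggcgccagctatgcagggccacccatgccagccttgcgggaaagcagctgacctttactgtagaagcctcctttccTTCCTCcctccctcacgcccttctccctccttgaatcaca
Csf1 (chr3:107760470-107760719, minus strand): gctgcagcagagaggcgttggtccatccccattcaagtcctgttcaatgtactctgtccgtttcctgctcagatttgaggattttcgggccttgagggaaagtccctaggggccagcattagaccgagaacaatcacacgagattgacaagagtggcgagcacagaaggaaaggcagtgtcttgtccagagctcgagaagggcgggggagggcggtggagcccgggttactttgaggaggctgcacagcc
Cd163 (chr6:124304401-124304650, plus strand): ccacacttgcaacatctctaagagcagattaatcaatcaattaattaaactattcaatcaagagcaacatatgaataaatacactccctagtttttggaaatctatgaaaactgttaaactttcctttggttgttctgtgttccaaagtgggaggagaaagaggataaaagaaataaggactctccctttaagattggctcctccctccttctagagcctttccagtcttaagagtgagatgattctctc
Mrc1 held 3 matches, 180, 167 and 35 bases before the start, all as TTCCTC. Cd68 held 1 match at 225 bases and Trem2 held 1 at 40 bases. The windows of Csf1, Cd163 and Folr2 held none. Of 32851 windows of this length over all genes in the table, 23.3% held at least 1 match, and of the 76 windows of the macrophage genes listed below, 46.1% did. A match describes the letters only. The expression of Spi1, which encodes PU.1, was 98 ± 23.1 CPM in KO tumors (SD, n = 6) and 88.3 ± 34.1 CPM in WT tumors (SD, n = 5). CPM are counts scaled to a common library total by TMM, the normalization of edgeR.

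Libraries held between 16294128 and 31121422 counts. The targeted gene Pkn2 ranged from 80.1 to 108 CPM in KO and from 62.9 to 138 CPM in WT tumors. With all libraries included, the level of its RNA in whole tumor thus does not tell the genotypes apart. WT replicates A, B and C stood apart from the other 8 libraries. In these 3 libraries, deviation from a gene's mean fell with exon length (Spearman rho from -0.505 to -0.176, against 0.122 to 0.407 in the others), and ribosomal RNA took 1.31% to 6.39% of counts, against 0.241% to 0.765%. The fold changes of the 10 genes and the counts over gene lists are therefore also given without them, which leaves 2 WT tumors. Pkn2 was at 69.2, 62.9 and 84.4 CPM in WT replicates A, B and C. In WT replicates D and E it was at 138 and 129 CPM, above every KO tumor. Without WT replicates A, B and C its log2 fold change of KO over WT was -0.46 (edgeR quasi-likelihood test, unadjusted p = 0.00313, adjusted p = 0.131).

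Per length of RNA, the identity genes Cd68 and Csf1r were the most abundant of the 10, followed by Arg1. On the TPM scale (counts over the summed length of all annotated exons, scaled to a common total), medians over the 11 tumors were 218 for Cd68, 154 for Csf1r, 106 for Arg1, 85.5 for Adgre1, 66.8 for Mrc1, 58.7 for Csf1, 16.9 for Folr2, 16.8 for Trem2, 11.2 for Nos2 and 2.81 for Cd163. Cd68 exceeded Csf1r in 11 of 11 tumors. Csf1 exceeded Folr2, and Nos2 exceeded Cd163, in 10 of 11. Csf1r exceeded Arg1 in 7 tumors, Adgre1 exceeded Mrc1 in 7, and Folr2 exceeded Trem2 in 6, so these neighbors in the order were not separated by the spread between tumors. The place of Trem2 rests on the annotation. Its exons sum to 4946 bases, but its longest protein-coding transcript has 1088 bases, and over that length its median would be 76.4 TPM, close to Mrc1 (79.2) and Csf1 (74.2) counted in the same way. The other 9 genes moved by at most the step from 106 to 160 TPM of Arg1.

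None of the 10 genes passed an adjusted p under 0.05 between genotypes, with adjustment over all genes (edgeR quasi-likelihood test, Benjamini-Hochberg), in a comparison that called 3 genes higher (0.0181%) and 0 lower (0%) in KO tumors, and 3972 genes at an unadjusted p under 0.05. At that unadjusted threshold 4 of the 10 were higher in KO tumors, namely Csf1r, Csf1, Adgre1 and Cd163, and 0 were lower, against 8.57% higher and 15.5% lower of all genes tested. DESeq2 called 2 of the 10 higher at an adjusted p under 0.05 (Cd163, 0.0202, and Csf1r, 0.0253), where it called 3.21% of all genes higher. The log2 fold change was positive for 8 of the 10 and their median was 0.53, beside 48.0% positive and a median of -0.03 over all genes tested. The ranges of KO and WT tumors overlapped for all 10 genes, whereas they did not overlap, with KO higher, for 1.59% of all genes and, with KO lower, for 2.01%.

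**Figure D1:**
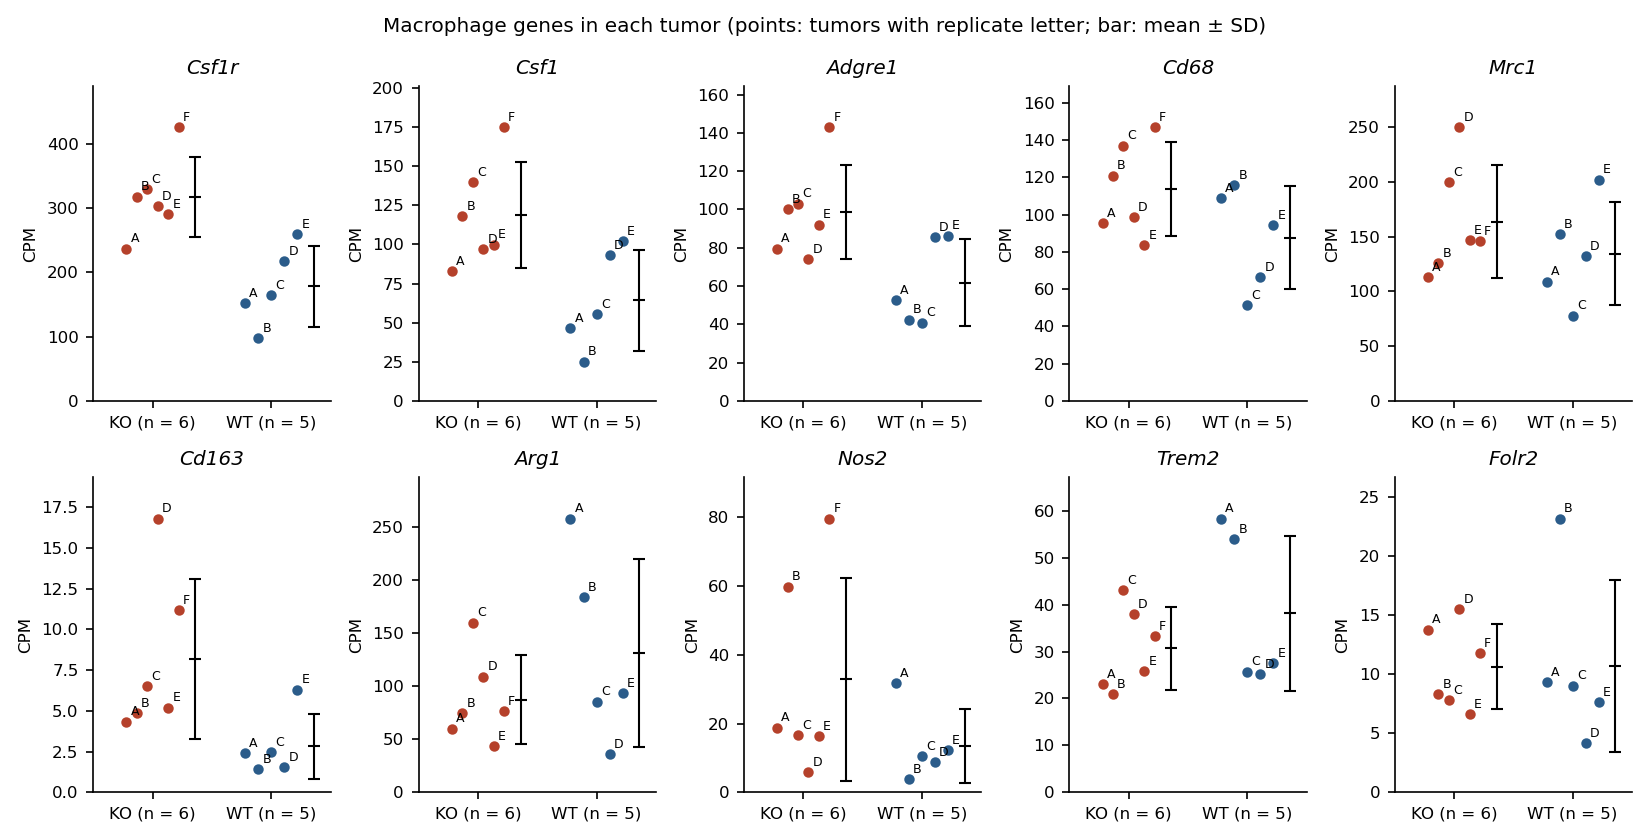
Scaled counts (CPM, linear axes from 0) of the 10 macrophage genes in each KO tumor (red, n = 6) and WT tumor (blue, n = 5), with the replicate letter beside each point and bars for the mean ± SD. For Csf1r only KO replicate A (237 CPM) lay below the highest WT tumor (260 CPM), while for Arg1 and Trem2 WT replicates A and B lay above all KO tumors.

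The receptor Csf1r and its ligand Csf1 were higher in KO tumors at the unadjusted threshold. Csf1r (ENSMUSG00000024621, chromosome 18, 61100598 to 61132149, plus strand, positions on GRCm38) lay between 237 and 426 CPM in KO tumors, with a median of 310. In WT replicates A to E it was 152, 97.1, 164, 217 and 260 CPM. All KO tumors except replicate A were above every WT tumor, and no WT tumor reached the KO median. The means were 317 ± 62.0 CPM (SD, n = 6) and 178 ± 62.6 CPM (SD, n = 5), a log2 difference of 0.83 ± 0.24 (SE, edgeR, adjusted p = 0.0967). Exons of Hmgxb3 overlap Csf1r on the opposite strand, with 389 to 1463 counts against 1164 to 10566 for Csf1r, and whether counting used the strand is not given in the sources used here.

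Csf1 (ENSMUSG00000014599, chromosome 3, 107741048 to 107760469, minus strand) encodes the growth factor that CSF1R binds, and stromal and carcinoma cells can make it as well as macrophages. It lay between 83.1 and 175 CPM in KO tumors, with a median of 109, and at 46.5, 25.1, 55.3, 93.1 and 102 CPM in WT replicates A to E. No WT tumor reached the KO median, and WT replicates D and E fell within the KO range. Its log2 fold change of KO over WT came to 0.88 ± 0.33 (SE, edgeR, adjusted p = 0.135). The other ligand, Il34, averaged 29.0 ± 6.13 CPM in KO tumors against 36.2 ± 12.6 CPM, with a log2 fold change of -0.32 ± 0.24 (SE).

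Adgre1 (ENSMUSG00000004730, chromosome 17, 57358691 to 57483527, plus strand), which encodes the surface receptor F4/80, lay between 74.0 and 143 CPM in KO tumors, with a median of 96.2. WT replicates A, B and C were at 52.6, 42.5 and 40.9 CPM, below every KO tumor, and replicates D and E were at 85.7 and 86.3 CPM, within the KO range. Its log2 fold change of KO over WT came to 0.68 ± 0.25 (SE, edgeR, adjusted p = 0.132). Cd68 (ENSMUSG00000018774, chromosome 11, 69664213 to 69666153, minus strand), which encodes a lysosomal glycoprotein, did not follow the same order. It lay between 83.5 and 147 CPM in KO tumors, and at 109, 116, 51.6, 66.4 and 94.5 CPM in WT replicates A to E, so that WT replicates A and B were among its higher values. Its log2 fold change of KO over WT came to 0.38 ± 0.23 (SE, edgeR, adjusted p = 0.322).

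Among the alternative activation markers, the scavenger receptor Cd163 (ENSMUSG00000008845, chromosome 6, 124304656 to 124330527, plus strand) had the lowest level of the 10 genes and, in the fit on all tumors, the largest fold difference, which passed to Nos2 without WT replicates A, B and C, without WT replicate A and without KO replicate D. KO replicates A to F held 4.34, 4.88, 6.54, 16.8, 5.20 and 11.2 CPM, and WT replicates A to E held 2.39, 1.42, 2.46, 1.57 and 6.30 CPM, from 17 to 413 counts. Every KO tumor was above WT replicates A to D, and only WT replicate E lay within the KO range. The means were 8.15 ± 4.90 CPM (SD, n = 6) and 2.82 ± 2.00 CPM (SD, n = 5), a log2 difference of 1.51 ± 0.48 (SE, edgeR, adjusted p = 0.107). Without WT replicate E, edgeR gave Cd163 a log2 fold change of 2.05 (adjusted p = 0.0288). The adjusted p was then 0.0306 for Csf1r and 0.0497 for Csf1, in a fit that called 3.63% of all genes higher. WT replicate E had the highest WT level of each of these genes, and WT replicates A, B and C stayed in that fit.

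Mrc1 (ENSMUSG00000026712, chromosome 2, 14229392 to 14332057, plus strand) was more abundant than Cd163 and showed no such separation. It lay between 113 and 250 CPM in KO tumors, with a median of 147, and at 109, 152, 77.9, 132 and 202 CPM in WT replicates A to E. Its log2 fold change of KO over WT came to 0.28 ± 0.26 (SE, edgeR, adjusted p = 0.524). The resident macrophage marker Folr2 (ENSMUSG00000032725, chromosome 7, 101839988 to 101857194, minus strand) lay between 6.62 and 15.5 CPM in KO tumors, with a median of 10.1, and at 9.37, 23.2, 9.04, 4.15 and 7.65 CPM in WT replicates A to E. WT tumors held both the highest and the lowest value of this gene, replicates B and D, and the log2 fold change came to 0.00 ± 0.39 (SE). An opposite-strand gene that overlaps its exons, Gm10602, had 17 to 47 counts against 106 to 393 for Folr2.

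The arginine enzymes varied more between tumors than the identity genes. Nos2 (ENSMUSG00000020826, chromosome 11, 78920787 to 78960254, plus strand) was at 18.8, 59.8, 16.7, 5.98, 16.4 and 79.6 CPM in KO replicates A to F and at 31.7, 3.84, 10.5, 8.81 and 12.3 CPM in WT replicates A to E. KO replicates B and F were high, and KO replicate D lay below 4 of the 5 WT tumors. Its log2 fold change of KO over WT came to 1.29 ± 0.65 (SE, edgeR, adjusted p = 0.241). Arg1 (ENSMUSG00000019987, chromosome 10, 24915221 to 24927484, minus strand) was at 60.2, 74.9, 160, 109, 43.6 and 76.5 CPM in KO replicates A to F and at 258, 184, 85.6, 35.8 and 93.3 CPM in WT replicates A to E. WT replicates A and B were above all KO tumors and WT replicate D was below all of them. The log2 fold change of Arg1 came to -0.59 ± 0.44 (SE, edgeR, adjusted p = 0.426).

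Trem2 (ENSMUSG00000023992, chromosome 17, 48346401 to 48354147, plus strand) resembled Arg1. It lay between 20.9 and 43.0 CPM in KO tumors, with a median of 29.5, and at 58.3, 53.9, 25.7, 25.2 and 27.5 CPM in WT replicates A to E. WT replicates A and B were again the highest, and the other WT tumors were below the KO median. Its log2 fold change of KO over WT came to -0.31 ± 0.28 (SE, edgeR, adjusted p = 0.509).

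The differences of Csf1r, Csf1, Adgre1 and Cd163 were smaller without the 3 WT libraries that stood apart. Without WT replicates A, B and C, 0 of the 10 genes passed an unadjusted p under 0.05 in edgeR, where 8.21% of all genes tested were higher and 9.01% lower. The log2 fold changes were then 0.41 for Csf1r, 0.29 for Csf1, 0.20 for Adgre1 and 1.05 for Cd163 (edgeR, adjusted p from 0.321 to 0.671). The direction turned for Arg1, to 0.44, for Trem2, to 0.22, and for Mrc1, to -0.03, and Folr2 moved to 0.85 (edgeR, adjusted p = 0.307). Cd68 was at 0.51 and Nos2 at 1.64. Removal of the length trend of each library by a gene length offset changed Csf1r, Csf1, Adgre1 and Cd163 little, to 0.75, 0.84, 0.72 and 1.45 (edgeR, adjusted p from 0.0734 to 0.137). It moved Cd68 to 0.74 (edgeR, adjusted p = 0.101), and these 5 genes passed an unadjusted p under 0.05 beside 9.23% of all genes higher and 13.8% lower. With ribosomal RNA as a covariate, 3 of the 10 genes were higher at an unadjusted p under 0.05 and 0 lower, beside 5.13% and 6.63% of all genes. Csf1r was then at 0.58, Csf1 at 0.54 and Cd163 at 1.28, and Adgre1, at 0.48, no longer passed (edgeR, adjusted p from 0.269 to 0.46), while Folr2 moved to 0.65, Nos2 to 0.81 and Trem2 to -0.06. With the length offset Arg1 was at -0.30, Folr2 at 0.44 and Trem2 at -0.41, and the last used the exon length of 4946 bases.

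**Figure D2:**
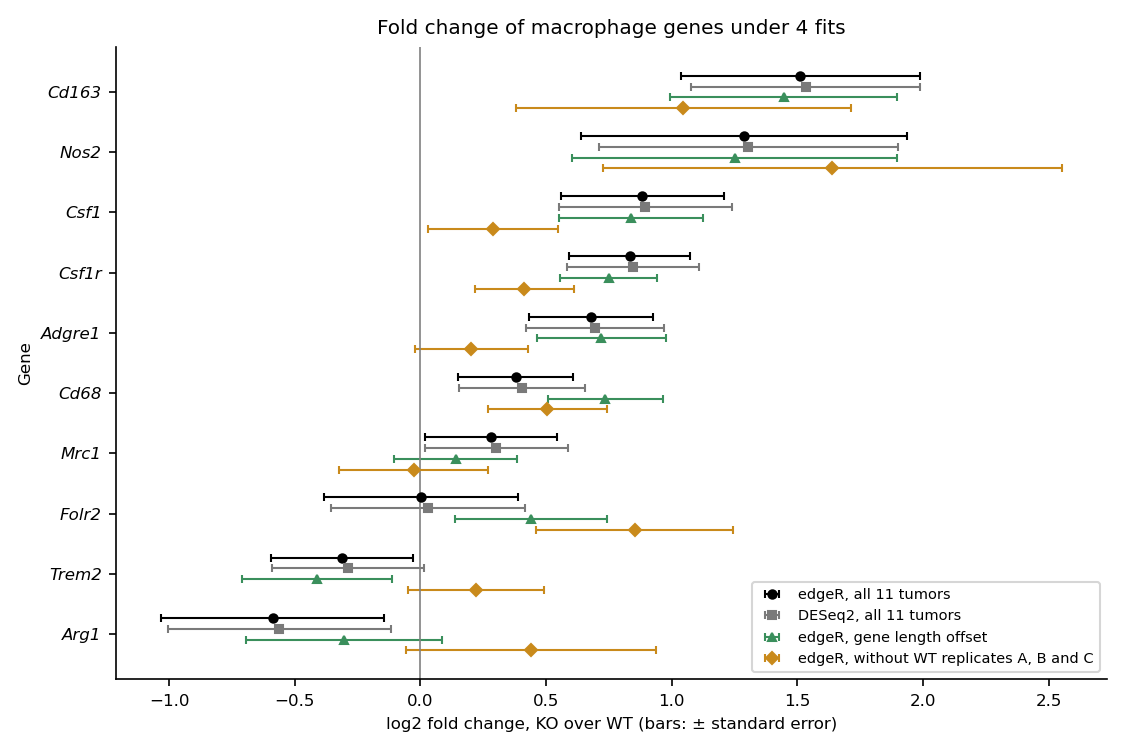
Log2 fold change of KO over WT tumors for the 10 genes (points, with bars for ± standard error) from edgeR on all 11 tumors, DESeq2, edgeR with a gene length offset, and edgeR without WT replicates A, B and C. The last fit brought Csf1r from 0.83 to 0.41 and Csf1 from 0.88 to 0.29, and moved Arg1 from -0.59 to 0.44.

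The 90 tested genes of the macrophage lists below were also read against their exon length. Among the 45 with exons summing to at most 2695 bases, the median log2 fold change was -0.02, and 5 were higher and 3 lower at an unadjusted p under 0.05. Among the 45 with 2842 bases or more, the median was 0.43, and 15 were higher and 0 lower. Of all genes tested, of any length, 8.57% were higher and 15.5% lower, and the share among long or short genes alone was not computed. Fold change and length had a Spearman rho of 0.426 over the 90 genes and 0.383 over 16527 genes of all kinds, a description across genes that share libraries. With the length offset the medians were 0.38 and 0.32, and 13 short and 15 long genes were higher, with 2 and 0 lower. In that fit 9.23% of all genes were higher and 13.8% lower. The short complement gene C1qa, at 706 ± 204 CPM in KO tumors against 679 ± 269 CPM in WT tumors, went from a log2 fold change of 0.06 to 0.55, and Ctss, a lysosomal protease, went from 0.36 to 0.72, both then past an unadjusted p under 0.05.

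**Figure D3:**
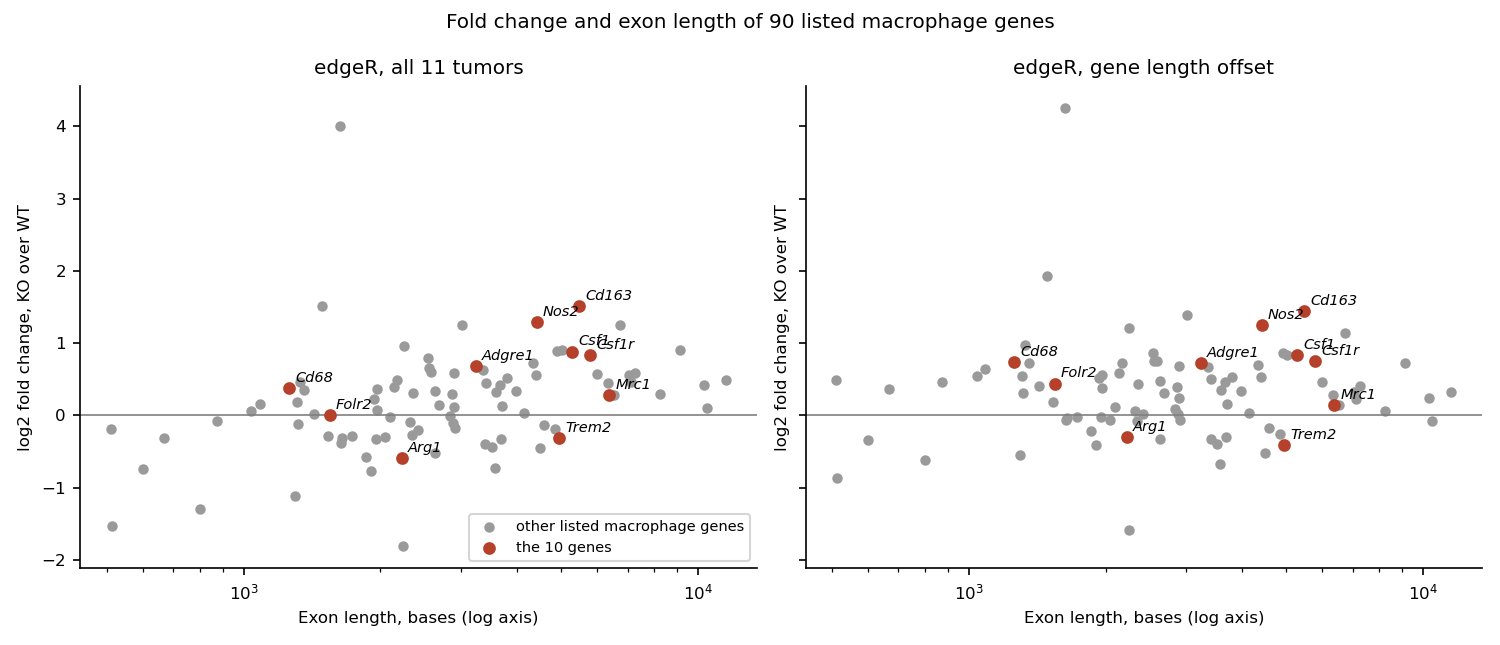
Log2 fold change of KO over WT tumors against summed exon length (log axis) for 90 listed macrophage genes, in the fit on all 11 tumors (left) and with a gene length offset (right), with the 10 genes in red. Short genes sat lower than long genes on the left (rho 0.426), with Cd68 rising from 0.38 to 0.74 once the length trend was removed.

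Tumors differed in which of the 10 genes led. KO replicate F was the highest of 11 tumors for Csf1r, Csf1, Adgre1, Cd68 and Nos2, and ranked 7 for Arg1. KO replicate D was the highest for Mrc1 and Cd163 and ranked 10 for Nos2. WT replicate A was the highest for Arg1 and Trem2, and WT replicate B was the highest for Folr2 and the lowest for Csf1r, Csf1, Cd163 and Nos2. WT replicate C was the lowest for Adgre1, Cd68 and Mrc1. High Nos2 and high Cd163 were found together in KO replicate F, with ranks 1 and 2, and apart in KO replicate D.

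**Figure D4:**
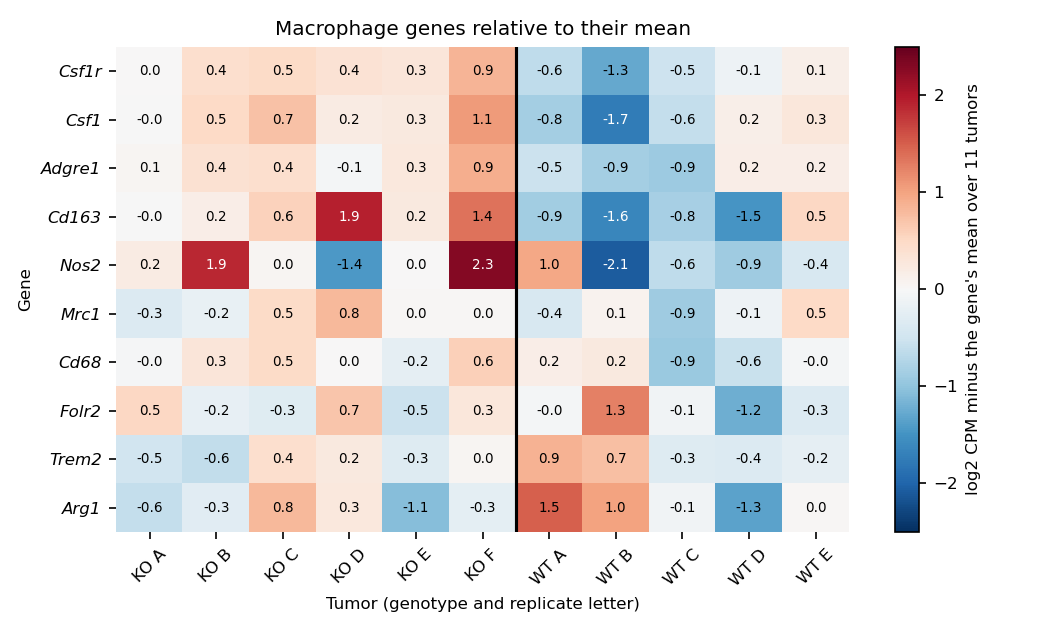
Log2 CPM of each gene (rows) in each tumor (columns) minus the gene's mean over 11 tumors, red above and blue below the mean, with KO tumors left of the line. KO replicate F is above the mean for Csf1r, Csf1, Adgre1, Cd163, Nos2 and Cd68, and WT replicates A and B are below it for Csf1r and Csf1 and above it for Trem2 and Arg1.

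Ratios of counts between the genes of a tumor, which do not depend on library scaling, described the balance of activation states without a test. They were not corrected for exon length, so the length trend of WT replicates A, B and C can enter them. Differences between genotypes were not recomputed without these libraries together. There were 2.92 Arg1 counts per Nos2 count at the KO median and 8.13 at the WT median. KO replicates A to F held 3.20, 1.25, 9.57, 18.2, 2.66 and 0.961, and WT replicates A to E held 8.13, 47.5, 8.16, 4.06 and 7.56. In 4 of 6 KO tumors the ratio was below every WT tumor, and in KO replicates C and D it was above 4 of 5, so that the KO group spanned both ends except for WT replicate B. Trem2 per Csf1r was 0.0932 at the KO median and 0.156 at the WT median, with 4 of 6 KO tumors below every WT tumor and with WT replicates A and B, at 0.384 and 0.555, far above the rest. WT replicates D and E, at 0.116 and 0.106, lay within the KO range of 0.0658 to 0.131. The difference of medians on the log2 scale, -0.75, was -0.53 without WT replicate A or B and -1.40 without WT replicate D or E. Mrc1 per Csf1r was 0.490 at the KO median and 0.718 at the WT median, and ranged from 0.343 to 0.825 and from 0.474 to 1.57.

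Cd163 per Csf1r was 0.0191 at the KO median and 0.0151 at the WT median, and only KO replicates D and F, at 0.0555 and 0.0263, were above every WT tumor. Adgre1 per Csf1r differed little, with medians of 0.316 and 0.347. Csf1r and its ligand varied least in proportion, with 2.34 to 3.11 Csf1r counts per Csf1 count in KO tumors and 2.33 to 3.86 in WT tumors. All 11 ratios examined overlapped between genotypes.

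**Figure D5:**
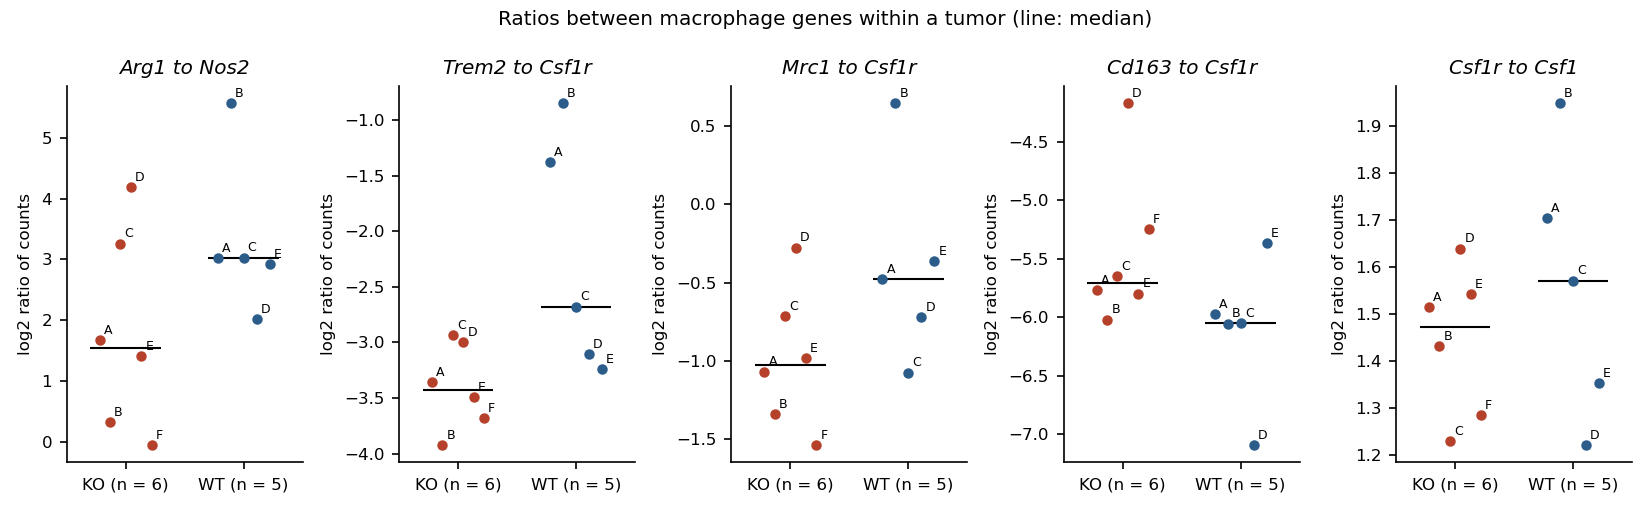
Log2 ratio of counts between pairs of macrophage genes in each KO tumor (red, n = 6) and WT tumor (blue, n = 5), with lines at the medians. For Arg1 to Nos2, KO replicates A, B, E and F lie below all WT tumors (medians 1.54 and 3.02), and Csf1r to Csf1 varies least, from 1.22 to 1.95.

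Likeness of patterns over tumors was measured as Pearson's r of log2(CPM + 1) over 11 tumors among 14882 genes. It describes the same values as above, which share libraries, depth and the length trend of WT replicates A, B and C. The r was not computed without these libraries. Csf1r was most like Csf1 (r = 0.982, and 0.982 after subtraction of genotype means), P2ry13, a purine receptor (0.977), and Inpp5d, a blood cell phosphatase (0.975). Csf1 was most like Nfkb1, a subunit of NF-kappaB (0.988), and Prex1 (0.988). Adgre1 was most like Dock2 (0.983) and Nckap1l (0.977), both regulators of the actin skeleton in blood cells, and Rassf5 (0.969). Nos2 was most like Cd274, which encodes PD-L1 (0.980), and the interferon-linked genes Dhx58 (0.978) and Stat2 (0.966).

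Arg1 was most like the C-type lectin Clec4d (0.950), the chemokine Ccl9 (0.922) and Metrnl (0.922). Cd68 was most like Emb (0.961), C130026I21Rik (0.939) and Ncf4, a subunit of the phagocyte oxidase (0.934). Mrc1 was most like Hhipl1 (0.938), Cacna1d (0.926) and Boc (0.921). Cd163 was most like Slc24a3 (0.942), 1700001L05Rik (0.942) and Kcnk6 (0.934). Trem2 was most like Fez2 (0.923), 6330418K02Rik (0.895) and Rftn2 (0.889), and Folr2 was most like 1700012B09Rik (0.876), Akap7 (0.873) and Slx1b (0.868), the lowest values of the 10.

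Between members, Arg1 and Trem2 had an r of 0.862, and Csf1r and Adgre1 had 0.916. Csf1r and Cd68, both used to identify macrophages, had 0.344, and -0.05 within genotypes. Their exons sum to 5774 and 1257 bases, and the libraries of WT replicates A and B had a falling length trend. In these 2 tumors Csf1r was low, at 152 and 97.1 CPM, and Cd68 was among its higher values, at 109 and 116 CPM. The part of the length trend in this r was not tested. Arg1 and Nos2 had -0.08, and Mrc1 and Nos2 had -0.25.

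Lists of macrophage genes placed the 10 in their pathways. Across 8 lists with 92 different genes, 90 were tested, 20 were higher and 3 were lower in KO tumors at an unadjusted p under 0.05, beside 8.57% higher and 15.5% lower of all genes tested, and 0 passed adjustment (lowest adjusted p = 0.0607, edgeR). Without WT replicates A, B and C, 19 were higher and 0 lower, beside 8.21% and 9.01% of all genes, but 4 were higher in both fits, Chil3, Fcgr1, Pltp and Stat6 (20% of the 20 and 21.1% of the 19). These lists were chosen with earlier results known, and no list was tested as a set. They include pathway genes, such as those of arginine metabolism, and were not limited to genes that only macrophages express. Which cells of the tumor expressed them was not measured. Of the 16 genes expressed by most macrophages, 6 were higher and 0 lower, with a median log2 fold change of 0.37. They included Mertk, a receptor for dying cells, at 31 ± 8.08 against 18.8 ± 4.29 CPM (log2 fold change 0.72 ± 0.21 SE, adjusted p = 0.0991), and Itgam (CD11b), at 38.2 ± 11.9 against 20.4 ± 9.47 CPM. Without WT replicates A, B and C 7 were higher and 0 lower, with a median of 0.68, and the 7 were Fcgr1, Aif1, C1qa, C1qb, C1qc, Ctss and Fcer1g. The most abundant, the lysozyme gene Lyz2, was at 2060 ± 435 and 2230 ± 1110 CPM.

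Of 12 genes of CSF1 receptor signaling and lineage, 4 were higher, with Csf1, Csf1r and Csf2rb among them, and 1 was lower (Csf2), with a median of 0.32. Tyrobp, the adaptor through which TREM2 signals, was at 166 ± 42.8 and 207 ± 146 CPM. Csf2, which encodes the growth factor GM-CSF, was at 2.53 ± 0.72 and 6.28 ± 4.95 CPM. Its log2 fold change of -1.30 turned to 0.17 without WT replicates A, B and C and was -0.62, no longer past the unadjusted threshold, with the length offset. Without those libraries 3 genes of this list were higher (Spi1, Tyrobp and Cebpa) and 0 lower, and Csf1, Csf1r and Csf2rb no longer passed.

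Of 16 alternative activation genes, 6 were higher (Cd163, Chil3, Clec10a, Il4ra, Stat6 and Irf4) and 1 was lower (Ccl17), with a median of 0.13. The interleukin 4 receptor gene Il4ra was at 217 ± 36.9 against 145 ± 45.4 CPM, and Stat6, the factor it activates, was at 153 ± 11.5 against 104 ± 19.7 CPM without overlap (log2 fold change 0.56 ± 0.15 SE, edgeR adjusted p = 0.0929). Chil3, which encodes the chitinase-like protein YM1, was at 153 ± 149 against 9.53 ± 3.90 CPM, again without overlap (log2 fold change 4.01 ± 0.66 SE, edgeR adjusted p = 0.0607). The direction was not shared by the chemokine gene Ccl17, at 8.48 ± 4.74 against 24.6 ± 16.1 CPM. Clec7a, the receptor dectin 1, was at 137 ± 54.1 and 196 ± 144 CPM. Stat6 and Chil3 alone were higher in this list without WT replicates A, B and C and 0 were lower, with a median of 0.42.

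Of 16 classical activation genes 15 were tested, without Il12a, 0 were higher and 1 was lower (Il23a, 0.418 ± 0.166 against 1.46 ± 1.80 CPM), with a median of 0.34. The interferon-induced chemokine gene Cxcl9 was at 1710 ± 1420 CPM in KO tumors against 715 ± 644 CPM in WT tumors, and the transcription factor gene Irf1 was at 400 ± 196 and 317 ± 142 CPM. The summed level of this list ranged from 879 to 6900 CPM in KO tumors, lowest in replicate D and highest in replicate F, the same tumors that were lowest and highest for Nos2 in that group. In WT tumors it ranged from 923 to 3570 CPM. Cxcl9, the most abundant gene of the list by mean, alone ranged from 345 to 4370 CPM in KO and from 185 to 1770 CPM in WT tumors. The sum thus leans on this gene. Of the 15 tested genes 10 had a positive and 5 a negative log2 fold change. In the fit without WT replicates A, B and C, 3 genes of the list were higher (Cxcl9, Cxcl10 and Irf5) and 0 lower, with a median of 0.54.

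Of 14 lipid-associated genes that go with Trem2, 0 were higher and 0 were lower, with a median of -0.31. Spp1 (osteopontin) was at 3500 ± 1140 and 4340 ± 1510 CPM, and Apoe was at 2670 ± 864 and 2040 ± 291 CPM. Without WT replicates A, B and C the direction turned, with a median of 0.27, 10 of the 14 positive, 3 higher (Cd63, Tyrobp and Fabp4) and 0 lower. With the ribosomal RNA covariate the median was -0.03. The smallest p-values belonged to Plin2, which coats lipid droplets, at 150 ± 19.2 and 204 ± 66.5 CPM, and Lgals3 (galectin 3), at 224 ± 39.8 and 334 ± 184 CPM. Their log2 fold changes turned from -0.44 to 0.15 and from -0.58 to 0.41 without those 3 libraries.

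Of 14 resident macrophage genes that go with Folr2, 5 were higher (F13a1, Gas6, Pltp, Cd163 and Vsig4) and 0 were lower, with a median of 0.45. Pltp, a phospholipid transfer protein, was at 90.6 ± 16.5 against 57.4 ± 16.1 CPM without overlap. The abundant members Selenop, a selenium carrier, and Ccl8, a chemokine, were at 1200 ± 215 and 1200 ± 334 CPM and at 273 ± 146 and 311 ± 184 CPM. The defining genes Timd4 and Lyve1 were low, at 1.46 ± 0.672 and 1.04 ± 0.504 CPM for Timd4 and 6.17 ± 5.37 and 6.91 ± 2.83 CPM for Lyve1. Only 2 genes of the list were higher without WT replicates A, B and C (Pltp and Ccl8) and 0 lower, with a median of 0.59.

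Of 11 arginine genes 10 were tested, without Nos1, and 1 was higher, the arginine transporter Slc7a2, at 67.5 ± 18.7 against 36 ± 13.5 CPM (log2 fold change 0.90 ± 0.28 SE, edgeR adjusted p = 0.107). Odc1, which makes polyamines from the product of arginase, was at 288 ± 57.1 and 377 ± 160 CPM. Arg2 was at 4.02 ± 2.23 and 3.96 ± 2.86 CPM. None of the list passed (0 of 10) without WT replicates A, B and C.

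Markers of other cell types differed as well, none past adjustment (lowest adjusted p = 0.0605, edgeR), and their part in the result was not tested. The shares of all genes tested were 8.57% higher and 15.5% lower, as above. Of 8 monocyte markers, 5 were higher in KO tumors at an unadjusted p under 0.05, and their summed level ranged from 2600 to 3700 CPM in KO and from 1660 to 2670 CPM in WT tumors. Of 12 neutrophil markers, 10 were higher, with sums from 303 to 3660 CPM in KO and from 163 to 1110 CPM in WT tumors. KO replicate F, which led the macrophage identity genes, had the lowest neutrophil sum of the KO group, 303 CPM. Chil3 was also on the monocyte list, and immature neutrophils are known to express it. Of 5 B cell markers, 5 were higher (33.6 to 102 against 6.26 to 30.3 CPM), and of 6 mast cell markers 3 were higher (39.7 to 72.9 against 14.4 to 33.4 CPM).

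Of 5 carcinoma epithelial markers, 3 were lower, with sums from 2440 to 4870 CPM in KO and from 3060 to 7920 CPM in WT tumors, and of 6 acinar markers 1 of 3 tested was lower, with sums from 7.25 to 574 and from 12.8 to 1520 CPM. Of 6 fibroblast markers 0 passed in either direction, with sums from 3100 to 7220 and from 1690 to 6490 CPM. Of 9 dendritic cell, 6 T cell and 5 endothelial markers, 0 passed, with sums from 101 to 270 against 83.1 to 192 CPM, from 60.3 to 350 against 144 to 418 CPM and from 146 to 204 against 104 to 211 CPM. The 6 lymphatic and sinusoidal endothelial markers tested and the 3 hepatocyte markers tested did not pass either. Their sums ran from 34.6 to 81.8 against 37.7 to 69.1 CPM and from 15.3 to 165 against 30.6 to 238 CPM. The lymphatic and sinusoidal sum covers 5 genes, without Ccl21a, whose symbol is shared by several gene identifiers. Without WT replicates A, B and C, 4 monocyte, 10 neutrophil, 4 B cell and 4 mast cell markers were higher. In the same fit 1 carcinoma epithelial, 1 lymphatic and sinusoidal and 2 acinar markers were lower. This fit tested 6 acinar markers, where the fit on all tumors tested 3, so these counts are not directly comparable. Of all genes tested without those libraries, 8.21% were higher and 9.01% lower. In all of these lists no marker was at 0 in every tumor.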

How the data were processed

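RNA from a piece of each tumor was made into stranded libraries and sequenced paired-end. According to the study's methods and the submitters' processing notes, the authors trimmed reads with Trimmomatic, aligned them with HISAT2 2.1.0 to mm10 and counted unique reads with a mapping quality over 10 over exons with HTSeq 0.11.2. The deposited raw table holds whole-number counts per gene. The deposited normalized table is a signal, the same counts divided by a factor per tumor, and was used only as an alternative for the ratios, which it leaves as they are.

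Groups and replicate letters came from the sample titles. Symbols, positions and exon lengths came from GENCODE M21 (GRCm38), which matched 54165 of 54232 identifiers. KO was compared with WT in edgeR 4.0.16 (R 4.3.3, TMM, filterByExpr by genotype, quasi-likelihood test, all 11 tumors, no covariate) with Benjamini-Hochberg adjustment over 16536 genes. Standard errors (SE) were derived from the fold change and its F statistic. DESeq2 1.42.0 was an alternative. The edgeR code was tested on simulated counts in which all genes shared a common dispersion. The simulation held no length trend and no ribosomal RNA difference between libraries, so it does not cover the libraries that stood apart. Ratios used a pseudocount of 0.5 counts, and 3 counts, taken as the detection floor, equal 0.0887 to 0.250 CPM, which covers counting error only. P-values measure the spread between tumors of separate animals.

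The 10 genes and all lists were chosen with earlier results of these data known. Genes named from a macrophage list are its 2 most abundant and its 2 with the smallest unadjusted p, and further genes, named for their role or because they passed in a fit, were chosen after their values were seen (Il34, Itgam, Csf2, Timd4, Lyve1 and Arg2 among them). A gene that this rule would name is not reported here. For each of the 10 genes, the 3 genes with the highest r at a mean of at least 1 CPM are named. Replicate letters do not mark the same animal in both groups. Deviations of tumors with the same letter had an r from -0.172 to 0.163.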

Additional observations from a re-analysis of the deposited data

Results flagged for a closer look

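Of 42 groups of 5 or 6 tumors examined (the 10 genes in CPM and the 11 ratios, in each genotype), 3 held a tumor whose gap to the nearest other tumor was large against the range of its group by Dixon's criterion, where about 2.1 are expected by chance. The log2 ratio of Arg1 to Nos2 in WT replicate B was 5.57, against 2.02 to 3.03 in the other 4 WT tumors. The log2 ratio of Nos2 to Csf1r in WT replicate A was -2.26, against -4.65 to -3.97 in the others. The log2 ratio of Adgre1 to Csf1r in KO replicate D was -2.03, against -1.68 to -1.57 in the other 5 KO tumors. WT replicates A and B are among the 3 libraries with a falling length trend and a higher share of ribosomal RNA.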

How the results depend on the processing

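The 10 genes were refitted under 19 alternatives, 11 of which left out 1 tumor each, and kept the reported sign in 180 of 190 values. The other 10 were Mrc1 (-0.027), Arg1 (0.44) and Trem2 (0.22) without WT replicates A, B and C, and 7 values of Folr2, whose log2 fold change of 0.00 ranged from -0.20 (without WT replicate D) to 0.50 (without WT replicate B) when 1 tumor was left out. The number of the 10 genes higher at an adjusted p under 0.05, 0 in edgeR, was 2 in DESeq2 and 0 to 3 with 1 tumor left out (3 without WT replicate E). The number at an unadjusted p, 4, was 0 without WT replicates A, B and C, and 3 with the ribosomal RNA covariate, where Adgre1 was lost. Listed macrophage genes higher in KO tumors, 20, fell to 11 with ribosomal RNA as a covariate, beside 5.13% of all genes higher. Those lower, 3, were 1 with the replicate block, 0 without WT replicates A, B and C and 1 to 7 with 1 tumor left out. The 7 came from the fit without WT replicate D, where 4919 of 16830 genes passed an unadjusted p under 0.05 and 11.1% of all were higher. With the replicate block 2599 of 16386 genes passed and 7.9% were higher. Over all genes, calls higher (3) were 39 with no filter, 0 with at least 10 counts in every tumor (3514 genes at an unadjusted p), 7 with the replicate block, 69 with the length offset, 595 in DESeq2 and 0 to 608 with 1 tumor left out. Calls lower (0) were 6 with no filter, 1 with the replicate block, 1 with the ribosomal RNA covariate, 28 with the length offset, 3 without WT replicates A, B and C, 900 in DESeq2 and 0 to 1248 with 1 tumor left out. The cause was not tested. The block used letters A to E in 10 tumors, which share only a letter, and brought Nos2 to a log2 fold change of 0.57. It changed no call of the 10 genes. All 143 recomputed ratio differences moved by less than 1 SD, and 2 of them changed sign, but that of Trem2 to Csf1r (-0.75) went to -1.40 without WT replicate D or E. These recomputations used a pseudocount of 5, the deposited normalized values, or 1 tumor left out at a time. The deposited values could hardly move a ratio, since they are the same counts divided by a factor per tumor. No recomputation left out WT replicates A, B and C together or corrected for exon length. Depth limits Cd163 most, with 17 counts in WT replicate B.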
